A study of Mus musculus with 16 samples.

Results

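The smooth muscle contractile genes followed here are 10 genes, Acta2, Actg2, Myh11, Des, Cnn1, Tagln, Smtn, Lmod1, Mylk and Synm, of 24543 genes tested on the arrays. They were chosen by name, and the array carried 16 probes under those names of 55681 that are not controls: 5 for Synm, 2 each for Smtn and Mylk, and 1 each for the rest. RNA came from macroscopically tumour-free colon of ApcMin/+ mice at day 28. These mice are heterozygous for an inactivating allele of the tumour suppressor Apc and develop intestinal tumours, and every group carried it. The 6 5-ASA mice had dextran sulphate sodium (DSS, 1.5% w/v) in their water for 3 days and 5-aminosalicylic acid (5-ASA), the 6 Control mice had the same DSS and saline, and the 4 Sham mice had water alone. DSS injures the colonic epithelium and provokes colitis. 5-ASA, or mesalazine, dampens inflammation of the gut lining and is prescribed for ulcerative colitis. The labels disagree on dosing: their protocol has 5-ASA or saline given into the colorectum for 28 days, whereas the per-sample texts have 5-ASA, or water without it, as the drink of the 25 days after DSS. Age and sex are not given in the sources used here. The series title asks about neutrophils and tumour burden, so the muscle layer was not the stated target of the study.

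The wall of the colon holds an inner circular and an outer longitudinal muscle layer, with the myenteric plexus of neurons and glia between them, and a thin muscularis mucosae under the epithelium. Smooth muscle shortens when calcium and calmodulin switch on myosin light chain kinase, which phosphorylates the light chains of myosin and lets myosin pull on actin. Smooth muscle actins, calponin, transgelin and the intermediate filament desmin are the textbook markers of mature smooth muscle, and many of their genes are driven by serum response factor with myocardin through a DNA element called the CArG box. Blood vessel walls, pericytes and myofibroblasts also make some of them, Acta2 and Tagln in particular. Each sample was a piece of whole tissue, so fewer cells of a type and less RNA per cell cannot be told apart.

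All values are log2 spot intensity minus the array's 75th percentile, with 1 array per mouse, so a value of 1 is a level 2-fold that percentile. The 16 probes were well above background on 16 of 16 arrays, and none was saturated. Each gene is given by its probe with the highest mean. The arrays lay on 2 slides, each with 3 5-ASA, 3 Control and 2 Sham mice. All 5-ASA mice and Control 3 and 6 lay in the second array row, where 53.0% to 57.7% of spots were well above background, and the other Control mice and all Sham mice lay in the first, where 59.8% to 65.2% were. Epithelial markers such as Cdh1, Cdh17 and Vil1 were well above background on every array, 14 of 14 listed, as is known for colon tissue.

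Sequences are given for the features through which these genes were read or through which their promoters can be compared. The first set is a pair of 60-base array probes that can be read in at least 1 forward frame without a stop codon. Most probes of the 10 genes have such a frame, so it does not set these apart. The Myh11 probe (mm9, chr16:14202190-14202249, minus strand) had 2 such frames and the second Smtn probe (mm9, chr11:3420834-3420893, minus strand) had 3.
Myh11 probe: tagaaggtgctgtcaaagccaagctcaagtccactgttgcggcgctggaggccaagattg
Smtn probe: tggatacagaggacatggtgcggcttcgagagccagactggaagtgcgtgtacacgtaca
Letters shared between the probes of different genes were few: over 45 pairs of the 10 representative probes, the best ungapped overlap of at least 30 bases held 34.7% to 62.9% identical bases. For the actins Acta2 and Actg2, whose proteins are nearly alike, it was 41.5%.

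The second set is promoter sequence, shown because the 10 genes varied together between mice and share a regulator in the textbooks. RefSeq promoters of GRCm38.p6 (250 bases before to 50 after the start) were found for 7 of the 10 genes, and not for Actg2, Myh11 or Tagln. Capitals mark matches to a relaxed CArG box, which is CC, then 6 bases of which at least 5 are A or T, then GG. The motif mirrors itself on the other strand, so 1 search covers both strands. Acta2 had 2 matches, CCCTATATGG beginning 84 bases and CCTTGTTTGG beginning 34 bases before the start. The Acta2 promoter lies at chr19:34255374-34255623 and the Synm stretch at chr7:67759933-67759992, both on the minus strand.
Acta2, 250 bases before the start: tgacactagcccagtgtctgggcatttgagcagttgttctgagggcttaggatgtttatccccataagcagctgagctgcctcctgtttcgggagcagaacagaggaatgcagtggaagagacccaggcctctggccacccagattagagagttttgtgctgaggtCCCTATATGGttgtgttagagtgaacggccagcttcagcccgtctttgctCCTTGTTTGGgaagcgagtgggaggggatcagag
Synm, the first 60 of the 250 bases: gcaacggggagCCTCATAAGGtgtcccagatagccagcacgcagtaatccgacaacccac
Synm had 1 match, CCTCATAAGG, beginning 239 bases before the start. Des, Lmod1, Cnn1, Smtn and Mylk had 0 in the window. Of 32851 promoters in the table, 9.98% held at least 1 match and 0.822% held at least 2. A match is a run of letters and no evidence of binding.

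The 10 genes were high and low in the same mice. Over the 16 mice the 45 pairs of genes had Pearson's r between 0.89 (Lmod1 and Actg2) and 0.98 (Tagln and Acta2), with a median of 0.95. Within groups, after each group's mean was taken out, r ran from 0.87 to 0.98. All values of 1 mouse come from 1 array and share its 75th percentile and the tissue piece, so these are descriptions over 16 mice. The mean over the 10 genes, each minus its own mean over the 16 mice, was highest in Sham 1 (0.90) and Control 1 (0.77). It was lowest in Control 6 (-1.24), Control 4 (-0.98) and Sham 3 (-0.45). In Sham 1 and Control 1 all 10 genes were above their own mean, and in Control 4, Control 6 and Sham 3 all 10 were below it.

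**Figure D1:**
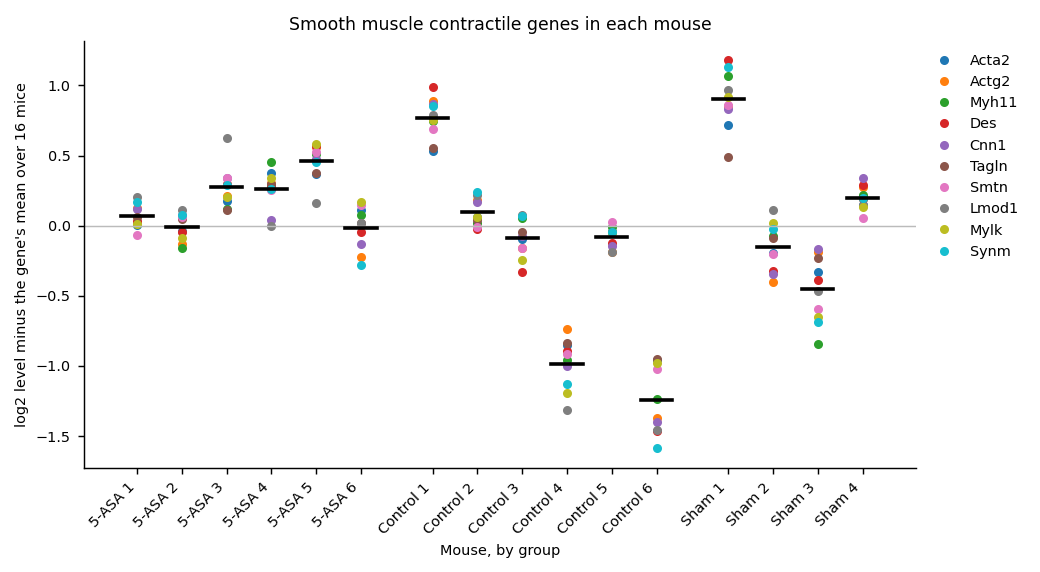
Log2 level of each of the 10 genes minus that gene's mean over the 16 mice (y axis) in each mouse (x axis), with 5-ASA, Control and Sham mice from left to right. Points are genes and black bars are their mean, which runs from -1.24 in Control 6 to 0.90 in Sham 1, while the 6 5-ASA mice sit between -0.01 and 0.46.

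The thin filament actins come first. Acta2, the smooth muscle alpha actin (probe at mm9 chr19:34316060-34316119, minus strand), had a lowest, median and highest log2 level of 6.47, 6.66 and 6.89 in 5-ASA mice, of 5.56, 6.44 and 7.05 in Control mice, and 7.23, 6.32, 6.18 and 6.66 in Sham 1 to 4. Actg2, the gamma actin of visceral smooth muscle (mm9 chr6:83462904-83462963, minus strand), had 6.23, 6.63 and 7.02 in 5-ASA mice, 5.08, 6.28 and 7.34 in Control mice, and 7.31, 6.05, 6.27 and 6.73 in Sham 1 to 4. For both, Control mice held the lowest value of all and the 5-ASA values lay inside the Control range. Their difference, Actg2 minus Acta2, averaged -0.08 ± 0.19 in 5-ASA mice (SD, n = 6), -0.06 ± 0.26 in Control mice (n = 6) and -0.01 ± 0.17 in Sham mice (n = 4), so the pair did not part by group.

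Myosin and its kinase form the motor. Myh11, the smooth muscle myosin heavy chain (the 60-base probe printed above), had 3.31, 3.56 and 3.97 in 5-ASA mice, 2.23, 3.47 and 4.20 in Control mice, and 4.53, 3.39, 2.62 and 3.68 in Sham 1 to 4. Mylk, the calcium- and calmodulin-dependent kinase of the myosin light chain (mm9 chr16:35001266-35001325, plus strand), had 1.86, 2.14 and 2.54 in 5-ASA mice, 0.76, 1.80 and 2.71 in Control mice, and 2.87, 1.97, 1.30 and 2.09 in Sham 1 to 4. Control 4 gave the lowest Mylk value and Control 6 the lowest Myh11 value, and in Sham mice Sham 3 was lowest for both. A second Mylk probe, made against another transcript of the gene, spanned 1.05 on the log2 scale over the 16 mice, against 2.11 for the first, and had r = 0.79 with it, so the 2 probes of Mylk disagreed in size.

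Desmin and synemin are intermediate filament proteins that tie the contractile units to dense bodies and to the membrane. Des (mm9 chr1:75363404-75363629, plus strand, a 60-base probe whose coordinates span 226 bases) had 3.13, 3.33 and 3.74 in 5-ASA mice, 1.71, 2.94 and 4.16 in Control mice, and 4.35, 2.84, 2.78 and 3.46 in Sham 1 to 4. Synm (mm9 chr7:74877629-74877688, minus strand) had 2.91, 3.41 and 3.65 in 5-ASA mice, 1.61, 3.20 and 4.04 in Control mice, and 4.32, 3.17, 2.50 and 3.39 in Sham 1 to 4. These were the widest ranges of the 10 genes, 6.58-fold between mice for Synm and 6.24-fold for Des, against 2.84-fold for Tagln. The other 4 Synm probes followed the first with r from 0.95 to 0.99.

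Calponin, transgelin, smoothelin and leiomodin complete the set. Cnn1, which binds actin and restrains myosin ATPase (mm9 chr9:21913058-21913117, plus strand), had 6.86, 7.09 and 7.47 in 5-ASA mice, 5.60, 6.89 and 7.87 in Control mice, and 7.83, 6.65, 6.83 and 7.34 in Sham 1 to 4. Tagln, an actin-binding protein (mm9 chr9:45738097-45738156, minus strand), had 7.12, 7.19 and 7.48 in 5-ASA mice, 6.15, 7.06 and 7.66 in Control mice, and 7.59, 7.02, 6.87 and 7.29 in Sham 1 to 4. Both had their highest value in Control 1 and their lowest in Control 6. Smtn, a marker of fully contractile smooth muscle (mm9 chr11:3417530-3417589, minus strand), had 4.58, 4.84 and 5.17 in 5-ASA mice, 3.62, 4.55 and 5.33 in Control mice, and 5.50, 4.44, 4.05 and 4.70 in Sham 1 to 4. Lmod1, an actin nucleator of smooth muscle (mm9 chr1:137264581-137264640, plus strand), had -1.48, -1.34 and -0.85 in 5-ASA mice, -2.93, -1.53 and -0.69 in Control mice, and -0.51, -1.36, -1.94 and -1.33 in Sham 1 to 4. Smtn had its highest value in Sham 1, and the second Smtn probe spanned 1.26 against 1.88 for the first (r = 0.93). For all 10 genes the 3 groups overlapped.

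**Figure D2:**
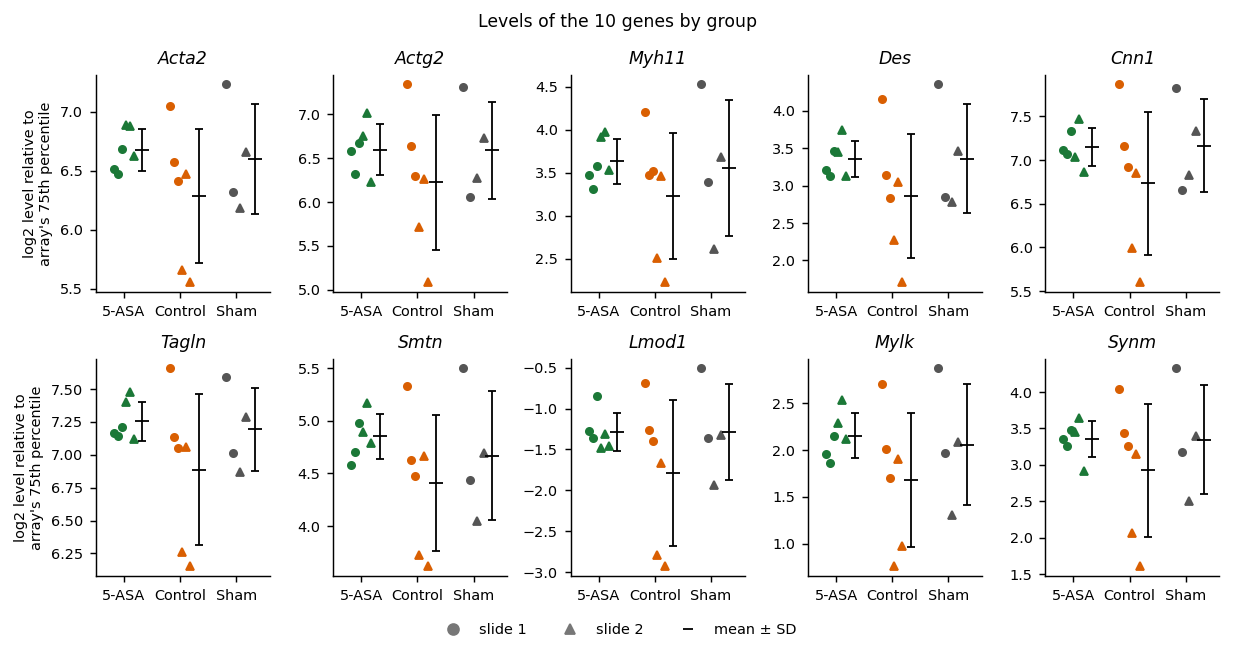
Log2 level relative to the array's 75th percentile (y axis, a separate scale for each gene) of each of the 10 genes in 5-ASA, Control and Sham mice; circles are slide 1, triangles slide 2, and bars are mean ± SD (n = 6, 6 and 4). Points of the 3 groups overlap in every panel, and the 2 lowest Control points of each gene lie on slide 2.

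Repeated spots of a probe on 1 array give the reading error of a spot, and not the error of labelling, of the array or of taking the tissue piece. Acta2 and Des were each printed 10 times on every array, and at least 7 of the 10 spots entered after outlying ones were left out. The SD of those spots had a median of 0.04 for both, against an SD between mice of 0.44 for Acta2 and 0.65 for Des. The SD within groups had a median of 0.58 over the 10 genes and of 0.26 over all 24543 genes.

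Between 5-ASA and Control mice every one of the 10 genes was higher in 5-ASA mice on average, and none passed the test. The log2 differences (5-ASA minus Control) ran from 0.37 (Tagln) to 0.50 (Lmod1), with a median of 0.42, or 1.34-fold. The mean over the 10 genes was 0.17 ± 0.19 in 5-ASA mice (SD, n = 6) and -0.26 ± 0.74 in Control mice (n = 6). Acta2 differed by 0.39 (SE 0.24), with a 95% interval from -0.11 to 0.90. Lmod1 differed by 0.50 (SE 0.35), with an interval from -0.24 to 1.24. In limma with Benjamini-Hochberg adjustment over all genes, all 10 had an adjusted p of 0.999, and 0 of 10 had an unadjusted p under 0.05. Over all 24543 genes 0% were called in this comparison, 4.09% had an unadjusted p under 0.05, and 49.5% were higher in 5-ASA mice. The 10 genes varied together, so their shared sign is not 10 independent observations. The median was 0.64 without Control 1, when 8 of 10 genes had an unadjusted p under 0.05 (lowest adjusted p = 0.774; 6.33% of all genes), and 0.23 without Control 6.

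The same 10 genes were lower in Control than in Sham mice on average, again without passing. Differences (Control minus Sham) ran from -0.50 (Lmod1) to -0.26 (Smtn), with a median of -0.37. Des differed by -0.50 (SE 0.39), with a 95% interval from -1.33 to 0.33. The means over the 10 genes were -0.26 ± 0.74 in Control mice (SD, n = 6) and 0.12 ± 0.58 in Sham mice (n = 4). Limma's Benjamini-Hochberg adjusted p lay between 0.701 and 0.815, and 0 of 10 had an unadjusted p under 0.05. Of all genes, 0.057% were called here, 8.87% had an unadjusted p under 0.05 and 50.3% were lower in Control mice. The median was -0.12 without Sham 1, when Myh11 and Smtn turned to 0.001 and 0.01, and -0.59 without Control 1.

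5-ASA and Sham mice had nearly equal averages, with wide intervals. Of the 10 genes, 7 were higher and 3 lower in 5-ASA mice (Des, Cnn1 and Lmod1), with differences (5-ASA minus Sham) from -0.01 (Cnn1) to 0.18 (Smtn) and a median of 0.04. Smtn differed by 0.18 (SE 0.31), with a 95% interval from -0.48 to 0.85, and Synm by 0.01 (SE 0.42), with an interval from -0.88 to 0.90. Limma's adjusted p lay between 0.915 and 1.000, and 0 of 10 had an unadjusted p under 0.05. Over all genes 0.057% were called, 11% had an unadjusted p under 0.05 and 49.1% were higher in 5-ASA mice. The median moved from -0.14 without Sham 3 to 0.31 without Sham 1, so its sign depended on single Sham mice. The order of the group means was 5-ASA, Sham, Control for 7 genes and Sham, 5-ASA, Control for Des, Cnn1 and Lmod1, and no neighbours in either order differed beyond their spread. The 3 comparisons share groups and are not independent of each other.

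**Figure D3:**
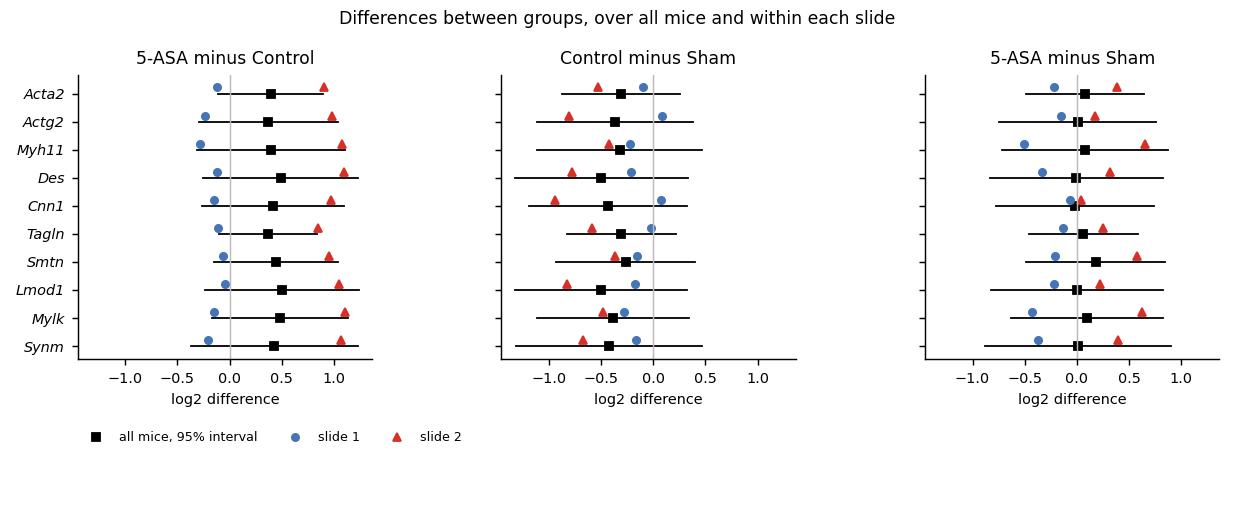
Log2 differences (x axis) of the 10 genes for 5-ASA minus Control, Control minus Sham and 5-ASA minus Sham; squares with lines are all mice with 95% intervals, circles are slide 1 and triangles slide 2. All 30 intervals cross 0, and in 5-ASA minus Control the slide 1 circles lie at or below -0.05 and the slide 2 triangles at or above 0.84.

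The difference between 5-ASA and Control mice had opposite signs on the 2 slides. On slide 1 all 10 genes were lower in 5-ASA than in Control mice, with a median of -0.13 and a range from -0.28 to -0.05. On slide 2 all 10 were higher, with a median of 1.01 and a range from 0.84 to 1.11, and there all 10 had an unadjusted p under 0.05 (lowest adjusted p = 0.807 in limma with Benjamini-Hochberg adjustment), against 5.27% of all genes. Control 4 and Control 6, the lowest mice, were both on slide 2, and Control 1 was on slide 1. The test of the change between slides gave an unadjusted p from 0.0185 (Tagln) to 0.0786 (Des), under 0.05 for 7 of 10 genes, against 5.22% of all genes. None was called, at an adjusted p of 0.846 for each. The count of 7 depended on the processing, from 4 with median scaling to 8 with normexp background correction. Control minus Sham had a median of -0.16 on slide 1 and -0.63 on slide 2, and 5-ASA minus Sham one of -0.22 and 0.35, and the change between slides had no unadjusted p under 0.05 in either. With the array row as a covariate the median was 0.85 for 5-ASA minus Control, -0.17 for Control minus Sham and 0.65 for 5-ASA minus Sham, and none of the 10 genes was called. In that fit 3 of 10 genes had an unadjusted p under 0.05 for 5-ASA minus Control, as had 1122 of 24543 genes in all. All Sham mice lay in row 1 and all 5-ASA mice in row 2, so the row term rests on Control 3 and 6 against the 4 other Control mice, and Control 6 was the lowest mouse. Row and group are largely confounded, and these values cannot tell them apart.

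5-ASA mice were closer to each other than Control mice were. The SD of the 10 genes ranged from 0.15 (Tagln) to 0.29 (Actg2) in 5-ASA mice, from 0.57 (Acta2) to 0.91 (Synm) in Control mice and from 0.32 (Tagln) to 0.79 (Myh11) in Sham mice. The ratio of the SD in 5-ASA to that in Control mice had a median of 0.302 over the 10 genes, with a range from 0.258 to 0.373, and of 1.01 over all genes. This comparison was added after the values had been seen. In limma on the absolute deviations from the group mean, 5 of 10 genes had an unadjusted p under 0.05, against 12.7% of all genes, and 0 were called, with a Benjamini-Hochberg adjusted p from 0.256 to 0.467 and 0.057% of all genes called. The unadjusted count needed both Control 4 and Control 6: it was 0 of 10 without Control 4 alone and 0 of 10 without Control 6 alone. The median SD ratio was still 0.305 without Control 4 and 0.352 without Control 6. With other mice left out 1 at a time the count reached up to 10 of 10, with a lowest adjusted p of 0.0704, so none was called. No share of all genes is given for those runs. The 10 genes varied together, so a count of 10 is not 10 independent observations.

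The diarrhea score of the 6 Control mice, recorded at day 28, went from 0.5 to 1.5. Pearson's r of the 10 genes with it lay between -0.54 (Mylk) and -0.37 (Lmod1), and Spearman's rho between -0.74 and -0.25. In exact two-sided permutation tests of the 10 relations, the p for r lay between 0.267 and 0.483 (Benjamini-Hochberg adjusted 0.483), and that for rho between 0.133 and 0.667 (adjusted 0.267 to 0.667). Control 3, with the highest score of 1.5, had a mean of -0.09 over the 10 genes, and Control 4 and 6, with a score of 1, had the lowest means. Control 3 lay farthest from the median score and the other 5 mice tied, so it was left out with each of them in turn. The 4 mice kept had scores of 0.5 and 1 alone, and r over them, between -0.997 and -0.757, restates that Control 4 or Control 6 was low. The relation cannot be judged over these mice.

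Other genes of the contractile cell varied with the 10 genes, to a degree that differed by role. Of 21 other filament and anchor genes, 21 were higher in 5-ASA than in Control mice (median 0.26) and 21 were lower in Control than in Sham mice (median -0.24), and none was called. Their mean followed that of the 10 genes with r = 0.99 over 16 mice, and 15 of 21 had r above 0.9. Examples are the actin crosslinker Flna (r = 0.99), the tropomyosin Tpm2 (0.99), the regulatory light chain Myl9 (0.99) and the actin-binding Cald1 (0.97), against 0.44 for the alpha-actinin Actn1. The genes with the smallest p of this list were Itga8 (0.33, SE 0.22) and Actn1 (0.18, SE 0.13) for 5-ASA minus Control, Nexn (-0.33, SE 0.25) and Pgm5 (-0.36, SE 0.28) for Control minus Sham, and Actn1 (0.16) and Itga8 (0.25) for 5-ASA minus Sham.

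Myosin phosphatase takes the phosphate off the light chain again and ends contraction. Ppp1r14a, an inhibitor of the phosphatase, was at 0.33 (SE 0.19) for 5-ASA minus Control and -0.31 (SE 0.21) for Control minus Sham, and the phosphatase subunit Ppp1r12b at 0.34 (SE 0.27) and -0.42 (SE 0.30). For 5-ASA minus Sham the targeting subunit Ppp1r12a was at -0.14 (SE 0.14) and the light chain Myl12b at -0.10 (SE 0.10). None of these 4 genes was called in any comparison, and with the mean of the 10 genes Ppp1r12a had r = 0.87, Ppp1r14a and Ppp1r12b 0.79 each and Myl12b -0.51.

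Of 14 transcription regulators tested, 9 were higher and 5 lower in 5-ASA than in Control mice, and 3 were higher and 11 lower in Control than in Sham mice. Their r with the mean of the 10 genes ran from -0.41 (Mef2c) to 0.94 (Hand2), with a median of 0.57, and 3 of 14 were above 0.9. Those 3 were Hand1 (0.90) and Hand2, factors of gut mesenchyme, and Foxf2 (0.91). Srf had 0.82, Myocd 0.62, Klf4 0.08, Mrtfa 0.02 and Mef2d -0.09. Klf4, which represses contractile genes in cultured smooth muscle and is strongly made by epithelium, was at -0.34 (SE 0.12) for 5-ASA minus Control, and Hand1 at 0.64 (SE 0.37). Mrtfa, a coactivator of serum response factor, was at -0.16 (SE 0.07) for Control minus Sham and -0.19 (SE 0.07) for 5-ASA minus Sham, and Mef2d at -0.27 (SE 0.12) and -0.32 (SE 0.12). None was called, and limma's lowest adjusted p of these was 0.366.

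Of 23 calcium, channel and receptor genes tested, 21 were higher and 2 lower in 5-ASA than in Control mice (median 0.29), and 6 were higher and 17 lower in Control than in Sham mice (median -0.24). Kcnmb1, the beta subunit of the large-conductance potassium channel, and Prkg1, the cGMP-dependent kinase of smooth muscle relaxation, had r = 0.95 and 0.96 with the 10 genes. Itpr1, the calcium release channel of the endoplasmic reticulum, did not follow them (r = 0.31). Its level averaged 1.89 ± 0.32 in 5-ASA mice (SD, n = 6), 1.73 ± 0.20 in Control mice (n = 6) and 2.34 ± 0.31 in Sham mice (n = 4). Sln, an inhibitor of the calcium pump, averaged -4.24 ± 1.04 in 5-ASA mice, -4.71 ± 0.84 in Control mice and -2.87 ± 1.75 in Sham mice. For Control minus Sham, Itpr1 was at -0.62 (SE 0.17) and Sln at -1.84 (SE 0.71), and for 5-ASA minus Sham at -0.46 (SE 0.17) and -1.37 (SE 0.71). In limma the adjusted p was 0.561 for both in the first comparison, and 0.363 and 0.503 in the second. The muscarinic receptor Chrm2 (0.48, SE 0.28) and the guanylate cyclase subunit Gucy1a1 (0.40, SE 0.24) had the smallest p for 5-ASA minus Control.

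The genes most like the mean of the 10 over the 16 mice, among 24533 others, were Flna (r = 0.99), Popdc2 (0.99), Myl9 (0.99), Tpm2 (0.99), Rbpms2 (0.98), Fermt2 (0.98), Csrp1 (0.98) and Kcnd3 (0.98). Within groups their r lay between 0.97 and 0.99. Flna, Myl9, Tpm2 and Csrp1 are also in the filament list above, and Fermt2 is an adaptor of integrin adhesions. In all, 418 genes (1.70%) had r above 0.9, against a median r of 0.06. At the other end stood the immune receptor Pilra (-0.89), the protease Ctsc (-0.88), Pdcd1 (-0.87, well above background on only 7 of 16 arrays) and the transporter Slc15a3 (-0.86), and 54 genes lay under -0.8. Pilra, Ctsc and Slc15a3 were each highest in Control 4 and lowest in Sham 1, and the mean of the contractile genes was -0.98 in Control 4 and 0.90 in Sham 1.

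Markers of other cell types varied with the 10 genes to different degrees. Enteric neuron markers (13 of 13 tested) had a list mean with r = 0.94 to that of the 10 genes, and 12 of 13 were higher in 5-ASA than in Control mice. Their list mean ranged from -0.09 to 0.27 in 5-ASA mice, from -1.10 to 0.61 in Control mice and from -0.37 to 0.66 in Sham mice. Enteric glia (8 of 8 tested) had r = 0.93 and ranged from -0.05 to 0.23 in 5-ASA mice, from -0.99 to 0.47 in Control mice and from -0.44 to 0.64 in Sham mice. The list means of the plexus markers were high and low in the same samples as the 10 genes, but single genes differed. Of the neuron genes 7 of 13 had r above 0.9, and the lowest was 0.13 (Snap25). Of the glia genes 2 of 8 had r above 0.9, the lowest was 0.10 (Gfra3), and 5 were well above background on all arrays. Pericyte and vessel wall markers (8 of 8 tested) had a list mean with r = 0.92, with a range from -0.13 to 0.23 in 5-ASA mice, from -0.60 to 0.39 in Control mice and from -0.21 to 0.48 in Sham mice. Among these 8 genes 1 had r above 0.9, and the lowest r was 0.41 (Pdgfrb). The part of these cells in the results was not tested.

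Other lists followed less or ran the other way. Fibroblast markers (12 of 12) had r = 0.57, endothelial ones (8 of 8) 0.59, adipocyte ones (6 of 7) 0.27 and epithelial ones (14 of 14) 0.12, and the epithelial mean stayed between -0.16 and 0.22 in 5-ASA mice, -0.01 and 0.08 in Control mice and -0.12 and 0.11 in Sham mice. Fibroblast markers had the signs of the 10 genes in the comparisons with Control mice, and none was called. In 5-ASA against Control mice 11 of 12 were higher (median 0.29), against 49.5% of all genes. There 2 had an unadjusted p under 0.05 in limma, against 4.09% of all genes. In Control against Sham mice 11 of 12 were lower (median -0.35), against 50.3% of all genes. There 4 had an unadjusted p under 0.05, against 8.87% of all genes. Interstitial cells of Cajal, the pacemaker cells of the gut (7 of 7), had r = 0.02, with Kit at 0.49 and Ano1 at -0.26. The list mean of skeletal muscle markers had r = 0.78 over the 6 of 13 genes tested, but its genes split, with Ckm at 0.97, Acta1 at 0.92, Tnnt3 at 0.40, Myh2 at 0.38, Myh3 at 0.30 and Tnni2 at -0.60. The fast myosins Myh1 and Myh4, Mylpf, Myog, Mb, Neb and Ttn did not pass the filter on dim probes. Cardiac markers (7 of 8) had r = -0.05, and only 1 of the 7 was well above background on all arrays. Of the tested genes, 3 of 6 adipocyte, 3 of 6 skeletal muscle, 4 of 7 neutrophil and 6 of 8 B cell ones were. The r of these lists thus rests partly on dim probes. B cell markers (8 of 8) had r = -0.62, with a list mean from -1.59 to -0.30 in 5-ASA mice, from -1.46 to 2.67 in Control mice and from -1.96 to 2.74 in Sham mice. Of the 8, 8 were lower in 5-ASA than in Control mice (median -1.11) and 8 were lower in Control than in Sham mice (median -1.06), the second being the direction of the 10 genes, and none was called. For 5-ASA minus Sham, where the 10 genes had a median of 0.04, all 8 were lower (median -2.06). Of these, 7 had an unadjusted p under 0.05 in limma, against 11% of all genes, and none was called. The list mean of neutrophil markers (7 of 8) had r = -0.77, with ranges from -0.43 to 0.23 in 5-ASA mice, from -0.65 to 1.37 in Control mice and from -0.85 to 0.55 in Sham mice. The neutrophil genes split, with S100a9 at -0.77, Ly6g and S100a8 at -0.70 each, Fpr1 at -0.62, Csf3r at 0.14, Elane at 0.29 and Mpo at 0.63. In both immune lists the lowest Sham mouse was Sham 1 and the highest Control mouse was Control 4, the mice at or near the top and bottom for contractile genes. The part of these cells in the differences between groups was not tested.

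**Figure D4:**
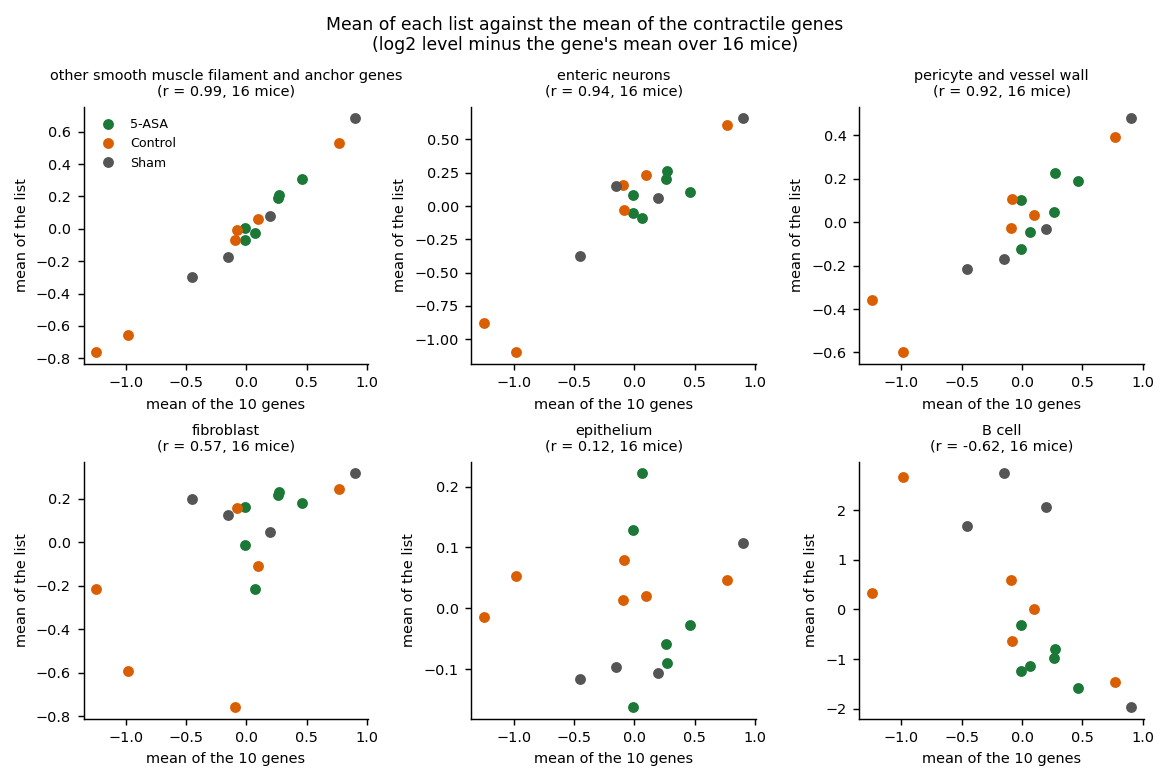
Mean of 6 gene lists (y axes) against the mean of the 10 contractile genes (x axes) in each of the 16 mice, both as log2 level minus the gene's mean over the 16 mice; green points are 5-ASA, orange Control and grey Sham mice. Filament, neuron and pericyte lists lie along a line (r = 0.99, 0.94 and 0.92), fibroblast and epithelium scatter (0.57 and 0.12), and B cell runs downward (-0.62).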

How the data were processed

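Non-tumour colon of 16 mice was measured on 1-colour Agilent arrays, with Cy3-labelled cRNA from 0.2 ug of total RNA per the labels' protocols. Per the file headers, Feature Extraction 10.10.1.1 subtracted background from the deposited spot intensity and removed spatial trends, with no scaling of arrays to each other, and probe positions are on mm9; the mean spot and local background intensity beside it are uncorrected, per the file headers. Flags of 0 or 1 for signal above background, saturation and outlying spots are also deposited there. The authors' deposited value table, used only as an alternative, matched log2 intensity centred on the Sham median (r from 0.992 to 0.998 per array; column medians from -0.19 to 0.22); scale, centring and direction were inferred and not stated by the authors.

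Each array's 75th percentile over probes that are not controls was subtracted from log2 of the processed intensity. Outlying spots were left out and a probe's spots averaged. Names came from the RefSeq table of GRCm38.p6 by accession for 27656 probes, and from the files for 28025. A probe was kept if 4 or more of 16 arrays had it well above background (35087 probes), and the kept probe with the highest mean stood for its gene (24543 genes). Limma 3.58.1 in R 4.3.3 fitted 1 model of the 3 groups, with Benjamini-Hochberg adjustment over all genes at 0.05; it was tested on simulated data. Named genes were all 10 members, the 2 genes of each pathway list with the smallest p per comparison, and the 8 most and 5 least like the members' mean; a few more of the lists were named after their values were seen, as examples of r, and 1 gene and 1 pathway list are not reported here. Replicates are labelled biological, 1 mouse each. The number of arrays limits the precision. Mice were not treated as paired by replicate number. Of 14 same-numbered pairs, 8 had deviations with r over 0.1 (range -0.21 to 0.61). No r of differently numbered pairs is given beside these, so they cannot settle whether the numbers pair the mice. The members and the 17 lists of 195 genes were chosen with earlier results of these data known. Alternatives covered background correction, scaling, the filter, slide, array row, replicate block and leaving out each mouse.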

Additional observations from a re-analysis of the deposited data

Results flagged for a closer look

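Of 30 groups (10 genes in 3 groups) checked for a mouse far from the rest, 1 stood out. Lmod1 in 5-ASA 3 was at -0.85 on the log2 scale, and the next highest 5-ASA mouse was at -1.27, a gap of 0.67 of the whole range of the 6 mice. Chance marks about 1 in 20 such groups.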

How the results depend on the processing

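None of the 10 genes was called in any comparison under any alternative run, and their lowest limma adjusted p was 0.499 for 5-ASA minus Control, 0.401 for Control minus Sham and 0.566 for 5-ASA minus Sham. Of 300 values of single genes per comparison, 290, 296 and 244 kept their sign in that order of comparisons, and 10, 4 and 56 did not. These counts overstate how steady the signs were, since some runs could not change a difference. Leaving out a mouse of the group not compared was such a run. The median was also unchanged with other filters on dim probes, slide as a block, only the 2 groups compared or no outer spot rows. Within slide 1, 5-ASA minus Control had a median of -0.13, with -0.12 for Acta2, -0.24 for Actg2, -0.28 for Myh11, -0.12 for Des, -0.14 for Cnn1, -0.11 for Tagln, -0.060 for Smtn, -0.046 for Lmod1, -0.15 for Mylk and -0.21 for Synm. Within slide 2 the median was 1.01. Control minus Sham within slide 1 was 0.079 for Actg2 and 0.078 for Cnn1. The values of 5-ASA minus Sham lay near 0 and changed sign most. They were 0.021 for Lmod1 with normexp, -0.012 for Actg2, 5.4e-05 for Lmod1 and -0.018 for Synm with quantile scaling, and -0.015 for Actg2 and -0.013 for Synm with median scaling. In the authors' deposited table Des was at 0.00025 and Lmod1 at 0.0063, and with the mean of all kept probes Synm was at -0.023. Within slide 1 that comparison gave -0.22 for Acta2, -0.16 for Actg2, -0.50 for Myh11, -0.13 for Tagln, -0.21 for Smtn, -0.43 for Mylk and -0.38 for Synm, and within slide 2 it gave 0.32 for Des, 0.038 for Cnn1 and 0.22 for Lmod1. With the array row as a covariate it gave 0.88 for Des, 0.69 for Cnn1 and 0.56 for Lmod1, with a median of 0.65. With the replicate number as a block (replicate block) it gave 0.095 for Des, 0.11 for Cnn1 and 0.15 for Lmod1, and the block changed no call among the 10 genes.

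With 1 mouse left out at a time, 5-ASA minus Sham ranged from -0.058 to 0.29 for Acta2, -0.17 to 0.25 for Actg2, -0.24 to 0.40 for Myh11, -0.20 to 0.32 for Des, -0.18 to 0.21 for Cnn1, -0.045 to 0.20 for Tagln, -0.025 to 0.46 for Smtn, -0.22 to 0.26 for Lmod1, -0.16 to 0.37 for Mylk and -0.27 to 0.33 for Synm. Control minus Sham ranged from -0.64 to 0.00088 for Myh11 and -0.47 to 0.013 for Smtn. Over all genes the count called for Control minus Sham, 14, was 1 with probes well above background on all arrays, 4 and 1 within slides 1 and 2, 7 in a fit of only the 2 groups and 0 without the outer 12 spot rows. With 1 mouse left out it was 10 to 15. For 5-ASA minus Control, 0 genes became 2952 without the filter on dim probes, of which 2888 had not passed that filter, 1 within slide 2 and 7 with the array row. For 5-ASA minus Sham, 14 became 3 with all arrays above background, 2 and 4 within slides 1 and 2, 7 with the array row and 0 without the outer rows, and 11 to 26 with 1 mouse left out. The change between slides of 5-ASA minus Control, with 1 gene called, gave 0 with normexp, quantile or median scaling, no filter, all arrays above background or the mean of all kept probes, and in Control minus Sham 0 became 2 without the filter and 1 with the mean of probes, and in 5-ASA minus Sham 0 became 1 without the filter. For that change in 5-ASA minus Control, 7 of the 10 genes had an unadjusted p under 0.05 in limma. The count was 4 with median scaling and 6 with the authors' deposited table, no filter or the mean of all kept probes. It was 8 with normexp or all arrays above background. The 10 relations with the diarrhea score kept their sign under other background correction and scaling. With 1 mouse left out, the median SD ratio of 5-ASA over Control ranged from 0.250 to 0.386. In those runs 0 to 10 of the 10 genes had an unadjusted p under 0.05 in limma on the absolute deviations, and none was called. The share of all genes in those runs is not given. Except where a count shows it, the cause was not tested. Dim probes limit the counts over all genes. The 10 genes were all well above background, and their median difference for 5-ASA minus Control was 0.42 with or without the filter. Their adjusted p depends on the other genes tested: its lowest in limma was 0.999 with the filter and 0.499 without it.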
